A study of Saccharomyces cerevisiae with 6 samples.

Results

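The respiratory chain and ATP synthase genes form a set of 37 nuclear genes of Saccharomyces cerevisiae, chosen by name. They encode the NADH dehydrogenases NDI1 and NDE1, the 4 subunits of succinate dehydrogenase (complex II), 9 subunits of the cytochrome bc1 complex (complex III), both isoforms of cytochrome c, 9 genes of cytochrome c oxidase (complex IV) and 11 of the ATP synthase. On the membranes 36 of them were matched to 1 spot each, out of 6084 spots in all. The complex III core gene QCR2 had no match and is not analysed here. Messengers made inside the mitochondrion (7 further subunits were looked for) had 0 matches, so all values below concern nuclear transcripts.

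The comparison covered 3 strains from exponential growth, all labelled as minus iron: Y18aft2delta (aft1aft2), which lacks AFT2 in the aft1 background, Y18 (aft1), and CM3260 (wt). No iron-replete sample is part of these comparisons. Which change the aft1 mutation carries is not given in the sources used here, and each genotype is represented by a single strain. Each of the 3 pairs of strains was measured in experiments 1 and 2, giving 6 samples from 6 hybridisations of total RNA to nylon filters.

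In the mitochondrial inner membrane, NADH dehydrogenases and complex II pass electrons to coenzyme Q, complex III passes them on to cytochrome c, and complex IV hands them to oxygen. Complexes III and IV pump protons, and the ATP synthase uses the returning protons to make ATP. Complexes II to IV and cytochrome c depend on iron in haem or iron-sulfur clusters, whereas the ATP synthase contains none. Budding yeast has no proton-pumping NADH dehydrogenase, and Ndi1 and Nde1 are single-chain flavoproteins. Aft1 and Aft2 are the activators of iron uptake genes in iron-starved yeast.

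A value is the log2 ratio of the first strain over the second after the median of all spots in that column was set to 0, and a mean is given with its standard error from limma (n = 2 hybridisations per strain). Neither the base of the logarithm nor the strain on top of the ratio is stated by the labels. The order of strains in the titles and the low FIT2 and FET3 ratios in both mutants make the direction used here likely, not certain. If it ran the other way, all signs would turn and all sizes would stay. The check of direction also listed the uptake genes FIT3, FRE1, ARN2 and SIT1, whose values are not given here. A fall of these uptake genes in the mutants is thus an input and not a result. Fewer cells with a transcript and less transcript per cell cannot be told apart in such bulk RNA. The spots of the mutated genes bear out neither the labels nor this direction. AFT1 stood at 0.03 ± 0.25 in aft1 against wt, and AFT2 at 0.77 ± 0.54 in aft1aft2 against wt and 1.11 ± 0.54 in aft1aft2 against aft1. With the direction used here, AFT2 thus had a higher mean, not a lower one, in the strain that lacks it. Before centring, the column medians lay between 0.09 and 0.625. Of all the columns, aft1aft2 against wt in experiment 2 had the widest spread over spots (SD 0.847).

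Across the whole set, 1 gene passed the test (limma, adjusted p under 0.05 over all spots), ATP2, which encodes the catalytic beta subunit of the ATP synthase. ATP2 fell in aft1aft2 against aft1 and in aft1aft2 against wt. Comparing aft1 with wt, 0 of 36 genes passed, where 1.46% of all spots did (0.838% higher and 0.625% lower). The double mutant against wt had 0 of 36 genes higher and 1 lower, where all spots had 0.723% higher, 3.71% lower and 4.44% in either direction. Set against aft1 it again had 0 genes higher and 1 lower, where all spots had 0.230%, 2.60% and 2.83%. An unadjusted limma p under 0.05 was reached by 3 of 36 genes for aft1 against wt (15.4% of all spots), by 9 for aft1aft2 against wt (21.4%) and by 8 for aft1aft2 against aft1 (22.6%). These shares of the set lie near or below those of all spots and are no result about the set.

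A difference of at least 2-fold in both experiments was also met by few genes of the set. Between aft1 and wt it was met by 0 of 36 genes, where 1.92% of all spots were higher and 2.01% lower by that measure. In aft1aft2 against wt, 0 genes were higher (1.05% of all spots) and 1, ATP2, was lower (4.31%). In aft1aft2 against aft1, 1 gene, SDH1, was higher (0.805%) and 1, ATP2, was lower (3.88%). All 12 alternatives in processing gave 0 calls in the set for aft1 against wt.

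**Figure D1:**
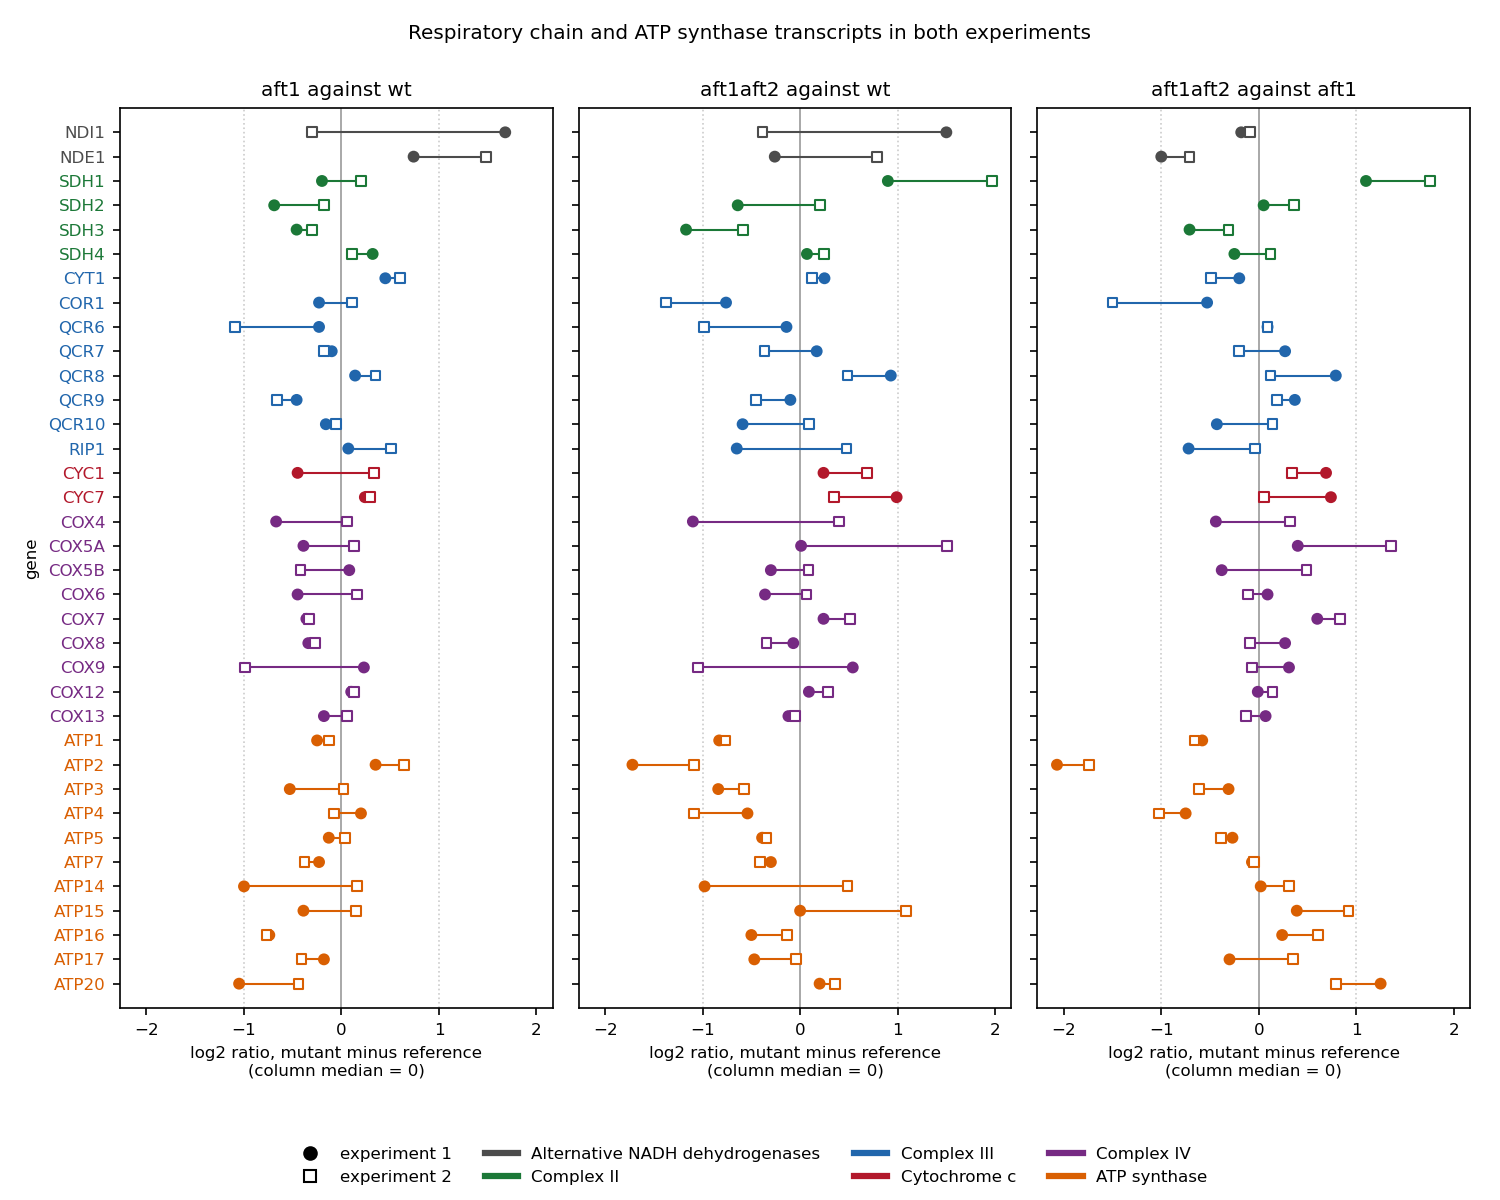
Log2 ratios of the 36 genes (rows, coloured by complex) in the 3 strain comparisons (panels), with the mutant, or the double mutant where both strains are mutant, over its reference. Filled circles are experiment 1 and open squares experiment 2, joined by a line, and dotted lines mark a 2-fold difference. ATP2 is the 1 gene beyond the left dotted line in both experiments of aft1aft2 against wt (-1.72 and -1.08), and SDH1 lies beyond the right one in both experiments of aft1aft2 against aft1 (1.10 and 1.76).

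The medians of the set were close to that of all spots. The median was -0.13 for aft1 over wt (0.01 over all spots), -0.18 for aft1aft2 over wt (0.02 over all spots) and 0.03 for aft1aft2 over aft1 (0.03 over all spots). The SD over genes in the same order was 0.39, 0.57 and 0.61 for the set, where all spots had 0.55, 0.66 and 0.64. With the values as deposited, without centring, the medians of the set were 0.13, 0.33 and 0.29, since centring had taken 0.265, 0.512 and 0.255 off every spot of the 3 comparisons on average. The signs of these medians are therefore relative to the typical spot and carry no statement about total messenger. Leaving out the ATP2 spot gave medians of -0.14, -0.15 and 0.04.

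How closely a difference was bounded can be read from the 95% intervals, taken per spot with no correction for the number of spots. The whole interval stayed within 2-fold for 22 of 36 genes in aft1 against wt (48.1% of all spots), for 18 in aft1aft2 against wt (42.6%) and for 16 in aft1aft2 against aft1 (42.2%). SDH4, QCR7, QCR10, COX5B, COX6, COX8, COX12, COX13, ATP5, ATP7 and ATP17 were among them in all 3 comparisons. The intervals of the remaining genes reached or passed 2-fold in at least 1 comparison, and that of ATP2 in aft1aft2 against aft1 lay wholly beyond it (-2.53 to -1.27). Between experiments the 36 ratios had r = 0.29 (rho = 0.31) for aft1 over wt, 0.36 (0.37) for aft1aft2 over wt and 0.74 (0.61) for aft1aft2 over aft1. Over all spots r was 0.55, 0.45 and 0.55. These are correlations over genes that share their hybridisations, given as a description.

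At the entry of the chain, NDE1, the external dehydrogenase that oxidises cytosolic NADH, had 0.74 and 1.48 in aft1 against wt in experiments 1 and 2. Its mean of 1.11 ± 0.31 was the highest of the set in that comparison but did not pass the test (adjusted p = 0.158). Against aft1, NDE1 in aft1aft2 stood at -1.00 and -0.71 (mean -0.85 ± 0.31, adjusted p = 0.185), and against wt at -0.26 and 0.78. Its level was thus higher in aft1 than in either other strain in both experiments. The paralogue NDE2, which is outside the set and is named because of its values, lay on the other side of 0 in aft1 against wt, with -0.98 and -1.19 (-1.08 ± 0.24, adjusted p = 0.0964). NDI1, which oxidises NADH inside the mitochondrion, had 1.68 and -0.30 in aft1 against wt and 1.50 and -0.39 in aft1aft2 against wt. The experiments disagreed in sign, with a gap of 1.98 in the first of these, the widest of the set. Its means were 0.69 ± 0.50 and 0.56 ± 0.50, so no direction can be given for NDI1.

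In complex II the highest values belonged to SDH1, the gene of the flavoprotein subunit, which binds succinate and FAD. SDH1 had 0.90 and 1.96 in aft1aft2 against wt and 1.10 and 1.76 in aft1aft2 against aft1, against -0.20 and 0.20 in aft1 against wt. In both experiments aft1aft2 was higher than either other strain. The means of 1.43 ± 0.31 and 1.43 ± 0.31, 2.70-fold, did not pass (adjusted p = 0.0624 against wt and 0.0768 against aft1). With columns scaled SDH1 passed in both comparisons (adjusted p = 0.0438 and 0.0472), and with columns quantile normalised likewise (adjusted p = 0.04 and 0.0408). Without aft1aft2 replicate 1, its hybridisation of experiment 1, it was 1.86 in both (adjusted p = 0.024 and 0.0221), and without wt replicate 1 it passed against aft1 (adjusted p = 0.0284). Over the 12 alternatives its adjusted p lay between 0.024 and 0.288 against wt, passing in 3, and between 0.0221 and 0.479 against aft1, passing in 4.

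The iron-sulfur subunit gene SDH2 had -0.69 and -0.18 in aft1 against wt, where it had the largest mean size in the complex (-0.43 ± 0.28), and -0.64 and 0.20 in aft1aft2 against wt. Of the membrane anchors, SDH3 was -1.17 and -0.58 in aft1aft2 against wt (-0.88 ± 0.26, adjusted p = 0.123), and SDH4 was 0.07 and 0.24. SDH1 and SDH3 thus lay on opposite sides of the typical spot in both experiments, while the complex as a whole had a median of -0.03 there. Complex II medians were -0.19 in aft1 against wt and 0.07 in aft1aft2 against aft1.

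Complex III, with 8 genes measured, had medians of -0.08 for aft1 over wt, -0.17 for aft1aft2 over wt and -0.05 for aft1aft2 over aft1. Its lowest value belonged to COR1, a core subunit, at -0.76 and -1.38 in aft1aft2 against wt and -0.53 and -1.50 in aft1aft2 against aft1. The means of -1.07 ± 0.30 and -1.01 ± 0.30 did not pass (adjusted p = 0.112 and 0.134). Without aft1aft2 replicate 1 they passed (-1.47 and -1.41, adjusted p = 0.0356 and 0.0399), where that strain rests on experiment 2 alone. In aft1 against wt COR1 was -0.23 and 0.11. QCR6, a small acidic subunit, had the largest mean of the complex in aft1 against wt at -0.66 ± 0.30, with -0.23 and -1.09. In aft1aft2 against aft1 it was 0.09 and 0.09 (95% interval -0.63 to 0.82).

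The 2 iron proteins of complex III encoded in the nucleus did not pass in any comparison. CYT1, the gene of cytochrome c1, had 0.45 and 0.60 in aft1 against wt (0.53 ± 0.23, adjusted p = 0.348) and 0.25 and 0.12 in aft1aft2 against wt. RIP1, the gene of the Rieske iron-sulfur protein, had 0.07 and 0.51 in aft1 against wt and -0.65 and 0.48 in aft1aft2 against wt. The experiments differed in sign for RIP1 in the double mutant. QCR8, a small subunit, was the highest of the complex in aft1aft2 against wt with 0.93 and 0.49 (0.70 ± 0.26, adjusted p = 0.196). QCR7, QCR9 and QCR10 had means from -0.56 to 0.28 over the 3 comparisons.

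Cytochrome c, the haem protein that links complexes III and IV, has an aerobic isoform, CYC1, and a second isoform, CYC7, that is favoured when oxygen is low. In aft1aft2 against wt CYC1 had 0.24 and 0.69 (0.46 ± 0.28) and CYC7 had 0.99 and 0.34 (0.67 ± 0.27). Both genes were thus higher in aft1aft2 in both experiments, without passing (adjusted p = 0.375 and 0.233). Against aft1, CYC1 in aft1aft2 was 0.69 and 0.34 (0.52 ± 0.28) and CYC7 was 0.74 and 0.05 (0.40 ± 0.27). In aft1 against wt, CYC1 was -0.45 and 0.33 and CYC7 0.24 and 0.29. The isoforms are similar in sequence, and whether their spots also read each other's messenger was not examined. Nor was it examined for NDE1 and NDE2, SDH1 and its paralogue SDH9, COX5A and COX5B, or the carrier genes PET9, AAC1 and AAC3.

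Complex IV varied least among its genes in aft1 against wt, with an SD over 9 genes of 0.16 and means from -0.38 (COX9) to 0.12 (COX12). Its medians were -0.17 for aft1 over wt, -0.11 for aft1aft2 over wt and 0.07 for aft1aft2 over aft1. COX5A, the aerobic form of subunit V, had the largest means in both comparisons of aft1aft2, with 0.01 and 1.50 against wt (0.75 ± 0.38) and 0.40 and 1.36 against aft1 (0.88 ± 0.38). Most of that size came from experiment 2, and neither passed (adjusted p = 0.307 and 0.235). Without aft1aft2 replicate 1 COX5A passed in both (1.37 and 1.50, adjusted p = 0.0454 and 0.0396), and over the 12 alternatives its mean against wt reached down to 0.14. The hypoxic counterpart COX5B was -0.30 and 0.08 against wt and -0.38 and 0.49 against aft1, with no direction shared by the experiments. Comparing aft1 with wt, COX5A had -0.39 and 0.13, and COX5B 0.08 and -0.42.

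COX7, a small subunit of the oxidase, had similar values in both experiments. It had 0.60 and 0.83 in aft1aft2 against aft1 (0.72 ± 0.23, adjusted p = 0.155) and -0.36 and -0.33 in aft1 against wt. COX9 had 0.23 and -0.99 in aft1 against wt and COX4 -1.10 and 0.40 in aft1aft2 against wt, so these values rest on which experiment is read. COX6, COX8, COX12 and COX13 had means between -0.30 and 0.18 in all 3 comparisons, each with an interval that stayed within 2-fold.

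**Figure D2:**
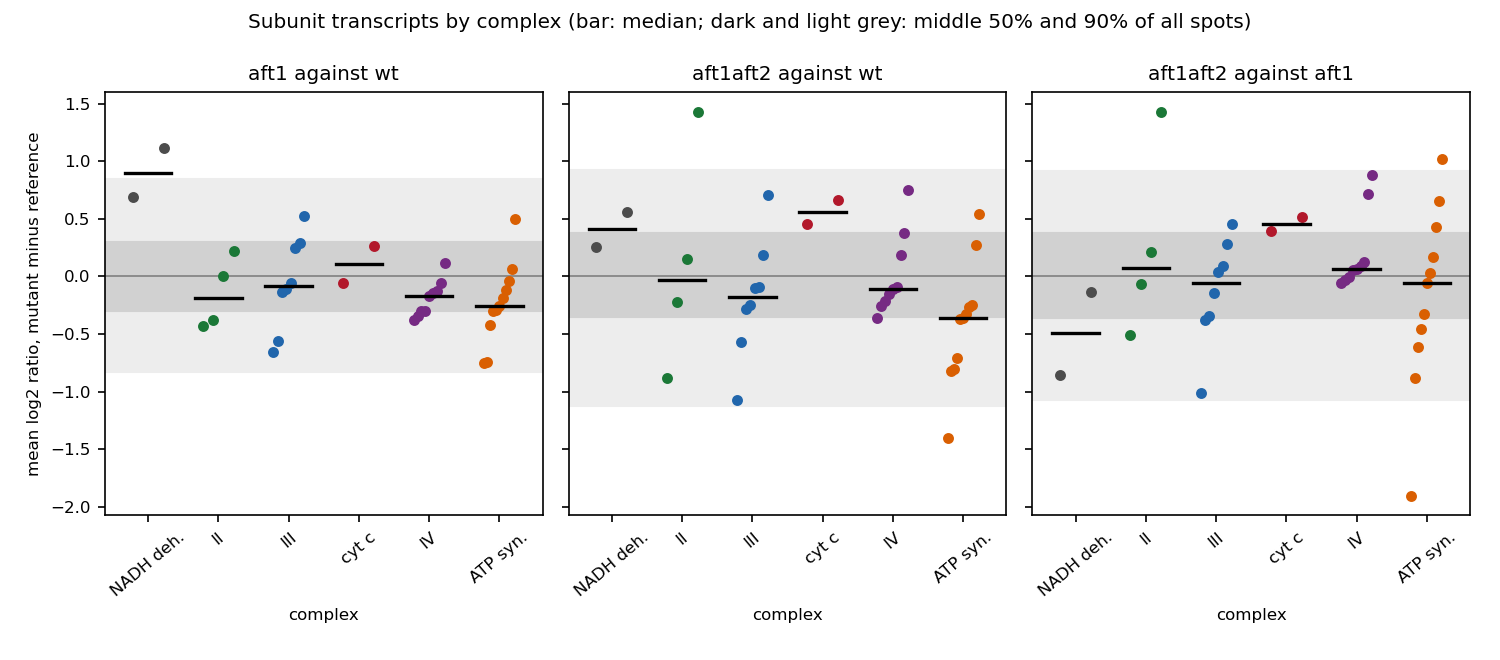
Mean log2 ratio of each gene (points) by complex in the 3 comparisons, with the median of the complex as a black bar and the middle 50% and 90% of all 6084 spots as dark and light grey bands. Complex medians other than the 2 dehydrogenases lie between -0.36 (ATP synthase, aft1aft2 against wt) and 0.56 (cytochrome c, aft1aft2 against wt), and the ATP synthase genes are spread over the widest range in aft1aft2 against aft1 (-1.90 to 1.02).

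The ATP synthase held the called gene and, in aft1aft2 against aft1, the widest range of the complexes. ATP2 had -2.07 and -1.74 in aft1aft2 against aft1 and -1.72 and -1.08 in aft1aft2 against wt, against 0.35 and 0.64 in aft1 against wt. In both experiments aft1aft2 was lowest and aft1 highest of the strains. ATP2 fell by a mean of 1.90 ± 0.26 against aft1, 3.74-fold, with an adjusted p of 0.0212, and ranked 75th from the bottom of 6084 spots. It fell by 1.40 ± 0.26 against wt, 2.65-fold, with an adjusted p of 0.0422. For aft1 against wt it stood at 0.50 ± 0.26 (adjusted p = 0.41).

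The 2 falls of ATP2 share the aft1aft2 hybridisations and are not independent of each other. The fall against aft1 passed in 8 of 12 alternatives, and the exceptions were the values as deposited (-1.65, adjusted p = 0.0917), without aft1 replicate 1 (-1.89, adjusted p = 0.22), without aft1 replicate 2 (-1.91, adjusted p = 0.173) and without aft1aft2 replicate 2 (-2.14, adjusted p = 0.0666). Of those 8 settings, averaging the spots of 1 gene and robust empirical Bayes leave the ratios of ATP2, which has 1 spot, unchanged. The fall against wt passed only in these 2 of the 12. In the other settings its mean lay between -1.65 and -0.89 and its adjusted p between 0.0525 (columns quantile normalised) and 0.137 (without wt replicate 1), with 0.0678 where the replicate block was left out. The sign of ATP2 was the same in all 12 settings of both comparisons. These settings reuse the same hybridisations, with values far below 0 in both experiments, and are no independent support.

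Of the other subunits, ATP1, ATP3, ATP4, ATP5 and ATP7 had values below 0 in both experiments of both aft1aft2 comparisons, without passing. Both comparisons share the aft1aft2 hybridisations, and these signs are relative to the column medians. Over the 12 alternatives the mean of ATP5 against wt reached up to 0.14 and that of ATP7 up to 0.15. Against aft1 the mean of ATP7 reached up to 0.19. The means of ATP1, ATP3 and ATP4 stayed below 0 in both comparisons. ATP1, the alpha subunit gene, had -0.58 and -0.66 against aft1 (-0.62 ± 0.23, adjusted p = 0.187) and -0.83 and -0.77 against wt (-0.80 ± 0.23, adjusted p = 0.118). ATP3, the gamma subunit of the rotating shaft, had -0.31 and -0.61 against aft1 and -0.84 and -0.57 against wt (-0.71 ± 0.25). ATP4, subunit b of the peripheral stalk, had -0.75 and -1.02 against aft1 (-0.88 ± 0.25, adjusted p = 0.124) and -0.54 and -1.08 against wt (-0.82 ± 0.25, adjusted p = 0.139). ATP5, the stalk's oligomycin sensitivity protein, was smaller in size at -0.27 and -0.39 against aft1 and -0.39 and -0.34 against wt. ATP1, ATP3, ATP4, ATP5, ATP15 and ATP20, like SDH3, CYT1, RIP1, QCR8, COX4 and COX7 above, are singled out because of their values.

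Other subunits of the same enzyme lay on the opposite side against aft1. ATP20, subunit g of the membrane part, had 1.25 and 0.79 in aft1aft2 against aft1 (1.02 ± 0.26, adjusted p = 0.0994) and -1.05 and -0.44 in aft1 against wt (-0.74 ± 0.26, adjusted p = 0.251), so aft1 had the lowest level in both experiments. ATP16, the delta subunit of the central stalk, had the largest mean size of the enzyme in aft1 against wt, at -0.75 ± 0.24 from -0.74 and -0.77 (adjusted p = 0.207), and was 0.24 and 0.61 in aft1aft2 against aft1. ATP15, the epsilon subunit, had 0.39 and 0.92 in aft1aft2 against aft1 and 0.00 and 1.08 against wt. ATP7, ATP14 and ATP17 had means between -0.42 and 0.17.

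In aft1aft2 against wt, 8 of the 11 ATP synthase genes were lower in both experiments, against 30.5% of all spots, 1 was higher in both and 2 were neither. For aft1 against wt the same counts were 5 lower (32.5% of all spots), 1 higher and 5 of mixed sign. In aft1aft2 against aft1 they were 6 lower (33.2%), 4 higher (33.4%) and 1 mixed. The medians of the enzyme were -0.36, -0.25 and -0.06 in these comparisons. The median in aft1aft2 against wt turned to 0.15 with the values as deposited, the average shift of that comparison being larger than the median itself. The count of 8 likewise rests on centring, which took 0.40 and 0.625 off its columns of experiments 1 and 2. Of these 8 genes ATP5, ATP7, ATP16 and ATP17 had means up to 0.14, 0.15, 0.19 and 0.25 over the 12 alternatives. The means of ATP1, ATP2, ATP3 and ATP4 stayed below 0. The 5 genes of the F1 part, a grouping made after the values were seen, had a median of -0.71 in aft1aft2 against wt and the other 6 genes had -0.31. The parts overlapped, with means from -1.40 (ATP2) to 0.54 (ATP15) in F1 and from -0.82 (ATP4) to 0.28 (ATP20) outside it. These medians too are relative to the column medians, are given for this comparison only, and their difference was not tested.

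**Figure D3:**
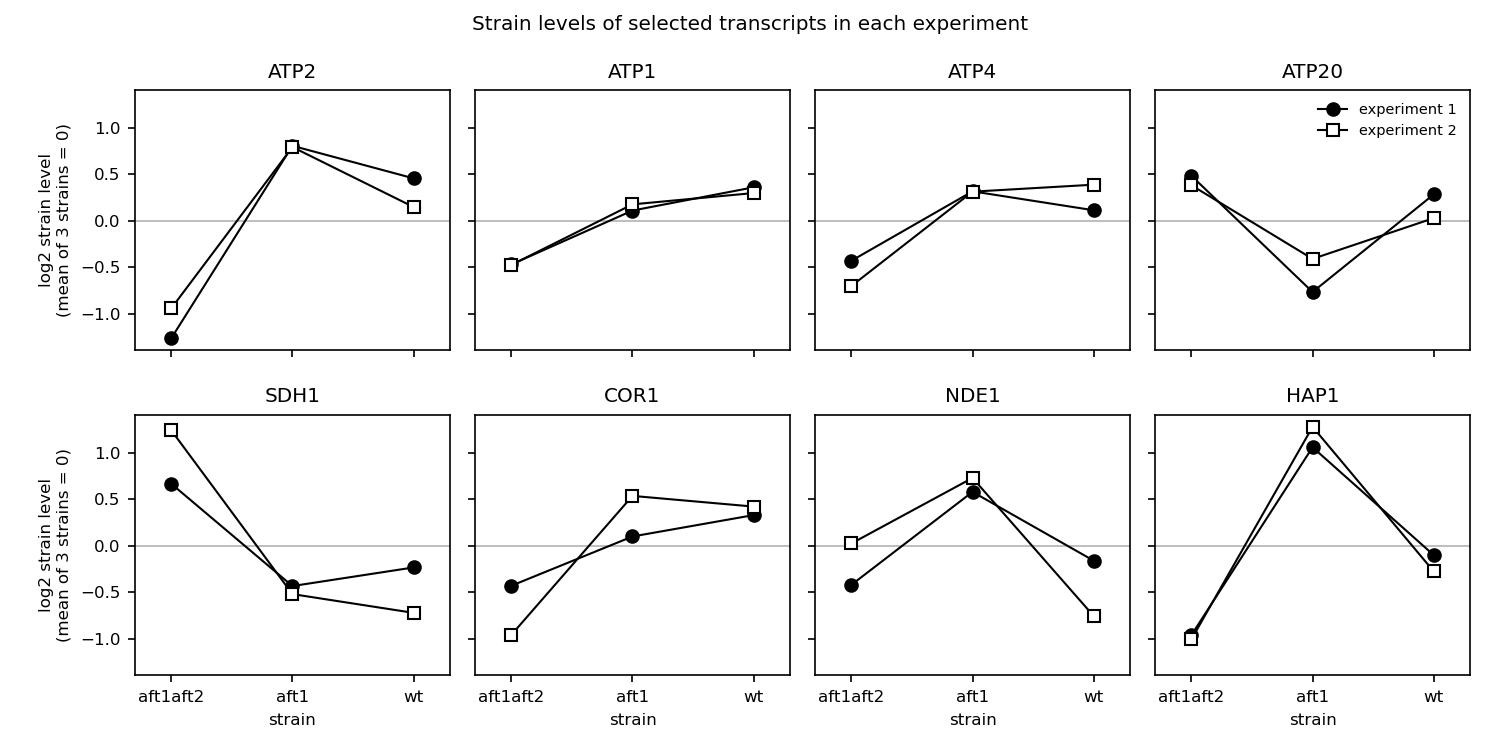
Log2 level of 8 transcripts in the strains aft1aft2, aft1 and wt, estimated from the ratios of each experiment so that the 3 strains average 0 (circles, experiment 1; squares, experiment 2). ATP2 and HAP1 are lowest in aft1aft2 and highest in aft1 in both experiments, ATP20 is lowest in aft1, and SDH1 is highest in aft1aft2.

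Complexes II, III and IV and the ATP synthase each held genes with means above and below 0 in all 3 comparisons. For aft1 against wt, 8 of 36 genes were higher in both experiments and 13 were lower in both, where all spots had 32.3% and 32.5%. In aft1aft2 against wt 10 were higher (30.7% of all spots) and 14 lower (30.5%). Of these 14, 8 were ATP synthase genes, lower relative to the column medians. In aft1aft2 against aft1 13 were higher (33.4% of all spots) and 12 lower (33.2%), near the shares of all spots. The difference between complexes was not tested. The 7 genes whose proteins bind haem or an iron-sulfur cluster (SDH2, SDH3, SDH4, CYT1, RIP1, CYC1 and CYC7) had medians of 0.22 for aft1 over wt, 0.15 for aft1aft2 over wt and -0.06 for aft1aft2 over aft1. The 29 genes without iron had -0.14, -0.25 and 0.04. Of the 7, 0 passed in any comparison, with means between -0.88 (SDH3) and 0.67 (CYC7). An unadjusted limma p under 0.05 was reached by 2 of them (SDH3 and CYC7), in opposite directions and both in aft1aft2 against wt. There 21.4% of all spots reached it, and so small a count is no result about the iron proteins.

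**Figure D4:**
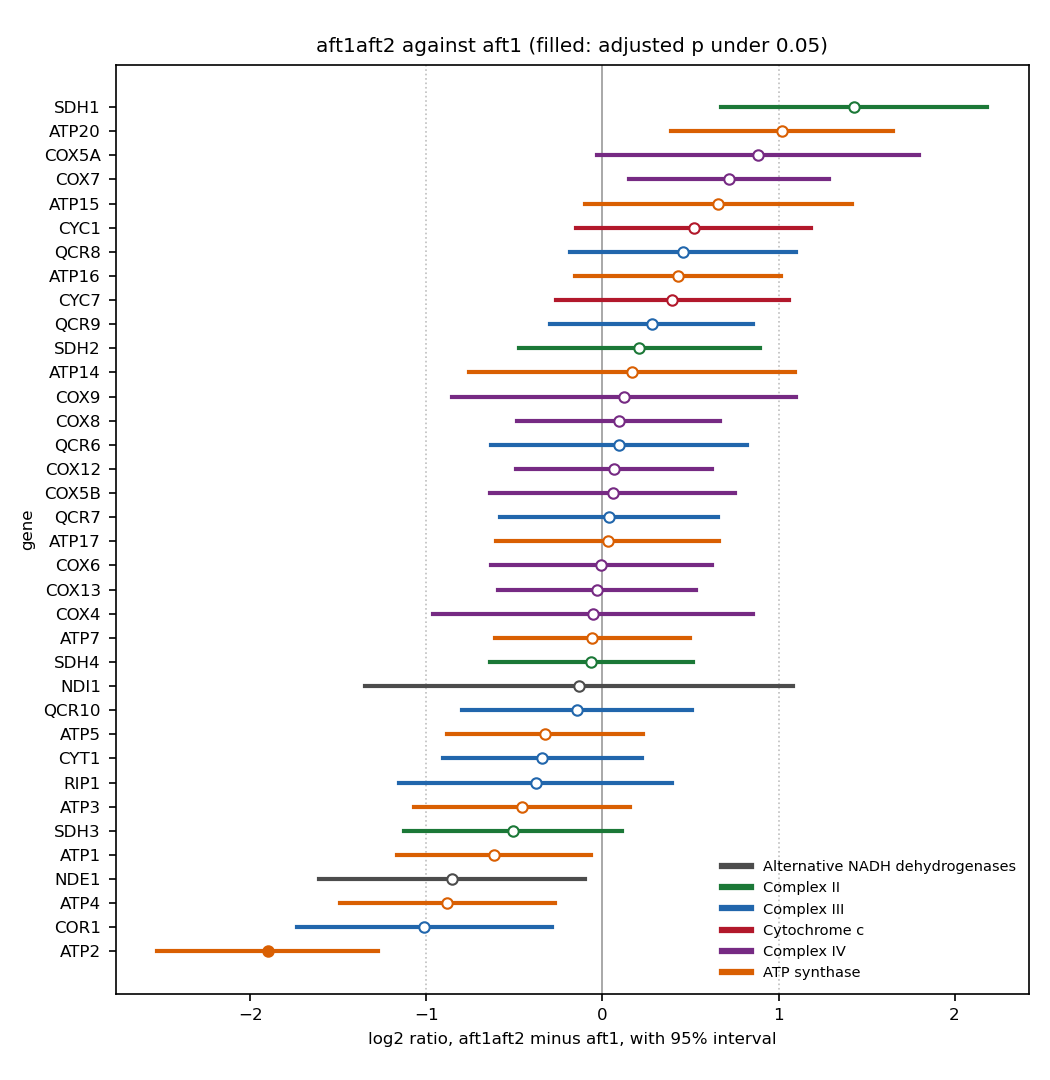
Mean log2 ratio in aft1aft2 against aft1 with its 95% interval for the 36 genes, sorted by mean and coloured by complex. A filled point has an adjusted p under 0.05, which only ATP2 has (-1.90, interval -2.53 to -1.27), and dotted lines mark 2-fold. SDH1 (0.67 to 2.19), ATP20 (0.39 to 1.65), COX7 (0.15 to 1.28), ATP1 (-1.17 to -0.06), NDE1 (-1.61 to -0.10), ATP4 (-1.49 to -0.27) and COR1 (-1.74 to -0.29) have intervals, not adjusted for the number of spots, that leave out 0.

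Around the subunits, 84 genes that assemble, regulate or serve the chain were measured. Of these 0 passed for aft1 against wt (1.46% of all spots). In aft1aft2 against wt 2 rose, ROX1 and NCA3 (0.723% of all spots), and 0 fell (3.71%). In aft1aft2 against aft1 2 fell, HAP1 and PET9 (2.60% of all spots), and 0 rose (0.230%). In either direction all spots had 4.44% and 2.83% in these comparisons, and the counts are no result about the 84 genes. HAP1 encodes the haem-responsive activator of CYC1, CYC7 and other respiratory genes. It had -2.02 and -2.29 in aft1aft2 against aft1, and fell by 2.15 ± 0.24, or 4.45-fold (adjusted p = 0.0109). Against wt it was 1.16 and 1.55 in aft1 (1.36 ± 0.24, adjusted p = 0.0652) and -0.86 and -0.72 in aft1aft2 (-0.79 ± 0.24, adjusted p = 0.134). Like ATP2, it was highest in aft1 and lowest in aft1aft2. Its fall passed in 9 of 12 alternatives, not without aft1 replicate 1, aft1 replicate 2 or aft1aft2 replicate 2 (adjusted p = 0.123, 0.125 and 0.0715).

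ROX1, the haem-dependent repressor of hypoxic genes such as COX5B, had 1.35 and 1.48 in aft1aft2 against wt and rose by 1.41 ± 0.23 (adjusted p = 0.0311). In aft1 against wt ROX1 was similar in size at 1.14 and 1.22 (1.18 ± 0.23, adjusted p = 0.0752), and between the mutants it was 0.22 and 0.24. COX5B, given above, was -0.30 and 0.08 in aft1aft2 against wt and 0.08 and -0.42 in aft1 against wt. HAP4, singled out because of its value and the activating subunit of the Hap2/3/4/5 complex that controls many respiratory genes, was 0.67 and 1.34 in aft1aft2 against wt (1.00 ± 0.26, adjusted p = 0.0997). The rise of ROX1 passed in 6 of 12 alternatives, with adjusted p-values up to 0.16 (without wt replicate 2) and 0.0569 without the replicate block.

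PET9, the main ADP/ATP carrier of the inner membrane, had -1.28 and -2.09 in aft1aft2 against aft1 and fell by 1.68 ± 0.29 (adjusted p = 0.0412). In aft1 against wt PET9 was 1.09 and 1.15, and in aft1aft2 against wt, where it did not pass, -0.19 and -0.93. After centring PET9 too was thus highest in aft1 and lowest in aft1aft2. Its place below wt is less firm, since centring took 0.40 and 0.625 off the columns of aft1aft2 against wt. Over the 12 alternatives its mean in that comparison lay between -0.95 and -0.04. NCA3, which helps to control expression of mitochondrially encoded ATP synthase subunits, rose in aft1aft2 against wt by 1.69 ± 0.32 (1.13 and 2.25, adjusted p = 0.0443) and was 1.15 and 1.46 in aft1 against wt (adjusted p = 0.125). The call for PET9 was lost in 5 of 12 alternatives and that for NCA3 in 5 of 12, in each case with the values as deposited (adjusted p = 0.0917 and 0.0702) and with some hybridisations left out (adjusted p up to 0.376 and 0.213), and for PET9 also without the replicate block (adjusted p = 0.0627).

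The remaining lists held no called gene, and each is given with the gene of its largest mean. The 18 measured assembly factors of complex IV had medians of -0.07 for aft1 over wt, 0.29 for aft1aft2 over wt and 0.10 for aft1aft2 over aft1. PET100, an assembly chaperone of the oxidase, had 0.69 and 1.54 in the last of these (1.12 ± 0.31, adjusted p = 0.116). The 7 genes for translation and processing of the mitochondrially made complex IV messengers had medians of -0.04, 0.25 and 0.24, and PET111, which activates translation of COX2, had 1.06 and 0.96 in aft1aft2 against aft1 (1.01 ± 0.31, adjusted p = 0.141). The 13 factors of complex III, counting CYC2 and CYC3 of cytochrome c maturation, had medians of -0.02, 0.23 and 0.03. Of these CBP3, which assists cytochrome b synthesis, had 0.74 and 1.14 in aft1aft2 against aft1 (0.94 ± 0.34, adjusted p = 0.184). No gene of these 3 lists passed in any comparison.

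The 7 assembly factors and paralogues of complex II had medians of -0.06, 0.12 and 0.13, and SDH8, an assembly factor, had 0.74 and 1.15 in aft1 against wt (0.95 ± 0.24, adjusted p = 0.133). The 10 genes of coenzyme Q synthesis had medians of 0.25, 0.01 and -0.08, and COQ2, the prenyltransferase of that pathway, had 1.50 and 0.75 in aft1aft2 against wt (1.12 ± 0.27, adjusted p = 0.0841). The 4 other dehydrogenases that feed the chain had medians of -0.14, -0.53 and -0.03, and GUT2, the mitochondrial glycerol 3-phosphate dehydrogenase, had -0.73 and -1.55 in aft1aft2 against aft1 (-1.14 ± 0.32, adjusted p = 0.12). Medians of the lists that held a called gene were -0.02, 0.08 and 0.19 for 13 ATP synthase factors, 0.24, -0.06 and 0.23 for 7 regulators, and -0.06, -0.03 and 0.11 for 5 carriers. All 84 genes together had -0.03, 0.07 and 0.13.

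The mean level of the 36 genes in a hybridisation lay between -0.08 and 0.11 on the log2 scale. The transcripts whose 6 strain levels followed that mean most closely were GEM1, YKU80, SRT1, PEX8 and NOP15, with Pearson's r from 0.983 to 0.993 over 6 levels. The levels share hybridisations, and with so narrow a range of the mean this likeness is a description of these 6 hybridisations only.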

How the data were processed

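Per the labels, total RNA (5 µg) was reverse-transcribed and hybridised to GeneFilters membranes in duplicate, exposed for 3 days and quantified with PATHWAYS 3. Each sample's file as deposited holds a log ratio for every spot, read here as log2. How membranes were normalised, and the genome build, is not stated in the sources used here. Intensities were not used here, so signal over background is unknown, and 0 columns were left out. Of 6084 spots 5523 carried 1 gene symbol, 0 several and 561 none, and all 5523 matched the R64 gene table. Promoter and protein sequences were not used here.

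Ratios were turned to mutant over reference and centred on each column's median. Within an experiment 2 of the ratios add up to the third within 0.01, so the experiment number pairs the samples through shared hybridisations. Strain levels were estimated by least squares, and limma 3.58.1 (R 4.3.3) fitted strain and experiment over all spots, with 2 residual and 4.25 prior degrees of freedom. P-values are two-sided, with Benjamini-Hochberg adjustment over all spots and a threshold of 0.05. The fit was also run on data simulated with independent noise, and how well it recovers differences of the sizes seen here is not reported. The labels do not say whether experiments 1 and 2 were separate cultures or the duplicate filters of the same RNA, and the p-values reflect only the variation between these hybridisations, possibly technical. The number of hybridisations limits the precision.

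Given with all values are genes past the threshold, genes at least 2-fold in both experiments of a comparison, the largest mean of each complex and comparison, and the isoform pairs. Members and lists were chosen with earlier results of these data known. A total of 12 alternatives were run.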

Additional observations from a re-analysis of the deposited data

How the results depend on the processing

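As reported, 89 spots passed for aft1 against wt (51 higher, 38 lower), 270 for aft1aft2 against wt (44 higher, 226 lower) and 172 for aft1aft2 against aft1. Using the values as deposited, 58 (44 higher, 14 lower), 72 (36 higher, 36 lower) and 52 passed in these comparisons, with 0, 0 and 0 of the 36 respiratory genes, whose medians were then 0.13, 0.33 and 0.29. With columns scaled 217 spots (109 higher, 108 lower), and with columns quantile normalised 215 (95 higher, 120 lower), passed for aft1 against wt, and 2 respiratory genes in either case for aft1aft2 against aft1 (SDH1 higher, ATP2 lower). Without the replicate block, using a comparison's own 2 columns, 44, 157 and 112 spots passed, with 0, 0 and 1 respiratory genes. Leaving out 1 hybridisation gave 3 to 255, 36 to 616 and 14 to 562 spots, with 0 to 0, 0 to 3 and 0 to 4 respiratory genes, and medians of -0.23 to -0.02, -0.18 to 0.07 and -0.07 to 0.07. The highest counts came from leaving out aft1aft2 replicate 1, its other hybridisation being assumed to vary like the rest. The fewest came without aft1 replicate 1, without aft1aft2 replicate 2 and again without aft1 replicate 1. The cause of these differences was not tested.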
